A study of Sus scrofa with 8 samples.

Results

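Integrins and laminins were examined as 37 protein-coding genes of the pig genome, 25 integrin genes (17 α and 8 β subunits) and 12 laminin genes, out of 19487 protein-coding genes annotated on chromosomes 1 to 18 and X of Sscrofa11.1. They were chosen by symbol alone, as ITGA or ITGB followed by a subunit name and LAMA, LAMB or LAMC followed by a number, and no measured value entered the choice. ITGAX, the αX leukocyte integrin, is annotated there as a long non-coding RNA and was therefore not a member. The cells were pig embryonic fibroblasts (PEFs), primary cells isolated from 35-day fetuses of Large White pigs and kept in culture for 24 h. They carried no transgene and received no treatment, so a single condition was measured. Chromatin immunoprecipitation and sequencing (ChIP-seq) gave 2 libraries each for H3K4me3, a histone mark of promoters, H3K27ac, a mark of active promoters and enhancers, and CTCF, the zinc-finger protein found at insulators and chromatin loop anchors. Neither the number of fetuses nor whether the replicates were separate cultures is given in the sources used here, so the spread between them may be technical.

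An integrin is a heterodimer of an α and a β subunit that spans the plasma membrane and ties extracellular matrix, or a ligand on another cell, to the actin cytoskeleton. A laminin is a heterotrimer of an α, a β and a γ chain that assembles into the basement membrane and is itself bound by some integrins. Fibroblasts are known to attach through β1 and αV integrins, leukocytes carry the β2 and β7 families, and epithelial cells carry α6β4. ChIP-seq peaks mark chromatin and do not measure RNA or protein, so no statement on expression follows from them.

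The 6 peak lists held between 37495 and 80531 peaks each on these chromosomes, with more in replicate 2 than in replicate 1 for every mark. The height of a peak is given as fold enrichment over the control library, and neither the read counts behind a peak nor the depth of a library is in the lists. Median fold enrichment over all peaks was 9.27 and 6.16 in H3K4me3 replicates 1 and 2, 4.84 and 4.75 for H3K27ac, and 19.6 and 19.1 for CTCF. Fold values were read within a mark only, since different antibodies were used, and H3K4me3 values were read within a replicate. All 12 of 12 fibroblast marker genes (COL1A1, COL1A2, COL3A1, DCN, FN1, LUM, PDGFRA, PDGFRB, S100A4, THY1, TWIST1 and VIM) had H3K4me3 and H3K27ac at the transcription start site (TSS) in both replicates. H3K27ac was found in both replicates at 0 of 6 epithelial, 0 of 5 endothelial, 1 of 6 leukocyte (SPI1), 1 of 4 muscle (MYOG) and 0 of 2 neural marker genes. H3K4me3 was found at 5 of 6, 1 of 5, 0 of 6, 3 of 4 and 1 of 2 of the same lists. Over all protein-coding genes the shares were 60.7% for H3K27ac, 68.9% for H3K4me3 and 58.9% for both marks. Epithelial and neural markers not found by symbol among the protein-coding genes were left out of these counts.

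Promoter sequences are shown for 5 genes that stood at different places in the results, LAMB1 and ITGB1 with both marks in wide peaks, LAMA1 with H3K4me3 and an H3K27ac peak in a single replicate, and LAMB3 and ITGAM with neither mark. Each is the 250 bases before the TSS in Sscrofa11.1 (RefSeq), written 5′ to 3′ on the gene's strand with every CpG in capitals. They lie at chr9:107747243-107747492 on the minus strand (LAMB1, 20 CpG), chr10:56130609-56130858 on the minus strand (ITGB1, 30 CpG), chr6:100332593-100332842 on the plus strand (LAMA1, 20 CpG), chr9:133297759-133298008 on the plus strand (LAMB3, 7 CpG) and chr3:17272135-17272384 on the minus strand (ITGAM, 5 CpG).
LAMB1: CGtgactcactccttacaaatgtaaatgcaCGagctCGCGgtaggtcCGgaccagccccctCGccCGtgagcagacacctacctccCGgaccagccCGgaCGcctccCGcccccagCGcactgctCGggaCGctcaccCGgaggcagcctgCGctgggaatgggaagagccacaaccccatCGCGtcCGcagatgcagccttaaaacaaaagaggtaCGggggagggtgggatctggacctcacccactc
ITGB1: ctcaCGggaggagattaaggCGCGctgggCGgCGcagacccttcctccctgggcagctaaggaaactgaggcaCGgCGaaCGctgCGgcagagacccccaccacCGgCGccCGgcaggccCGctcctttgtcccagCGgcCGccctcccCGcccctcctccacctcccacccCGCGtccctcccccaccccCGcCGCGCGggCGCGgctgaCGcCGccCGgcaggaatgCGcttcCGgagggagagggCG
LAMA1: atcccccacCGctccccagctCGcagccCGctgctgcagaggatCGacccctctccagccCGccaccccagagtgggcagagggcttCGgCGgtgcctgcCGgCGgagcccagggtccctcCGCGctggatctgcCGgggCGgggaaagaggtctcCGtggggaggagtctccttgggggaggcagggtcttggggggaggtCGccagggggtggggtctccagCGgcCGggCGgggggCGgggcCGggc
LAMB3: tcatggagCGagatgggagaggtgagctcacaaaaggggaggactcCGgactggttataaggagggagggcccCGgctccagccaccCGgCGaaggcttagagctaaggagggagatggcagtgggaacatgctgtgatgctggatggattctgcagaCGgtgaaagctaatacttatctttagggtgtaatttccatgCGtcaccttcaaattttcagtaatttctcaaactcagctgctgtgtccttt
ITGAM: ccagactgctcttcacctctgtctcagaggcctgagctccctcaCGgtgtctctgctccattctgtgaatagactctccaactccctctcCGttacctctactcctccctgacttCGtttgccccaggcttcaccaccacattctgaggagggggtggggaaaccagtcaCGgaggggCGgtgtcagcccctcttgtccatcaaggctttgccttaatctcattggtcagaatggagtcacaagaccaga

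H3K4me3 marked 26 of the 37 genes within 1 kb of the TSS in both replicates, beside 68.9% of all protein-coding genes. H3K27ac marked 24, beside 60.7%, and the same 24 carried both marks, beside 58.9%. A TSS with H3K4me3 in both replicates and H3K27ac in neither was found at 1 member, LAMC3, beside 8.25% of all genes. Neither mark in either replicate was found at 11 members, beside 27.5%. LAMA1 was the only member whose histone call differed between replicates. With the peak summit required inside the 1 kb, 13 members kept both marks, and with 5 kb on each side of the TSS 6 members had neither. These shares of the members lay near those of all genes, so the counts are not a result about integrins and laminins as a group. The subunits differed among themselves.

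By role, all 4 collagen-receptor α subunits (ITGA1, ITGA2, ITGA10 and ITGA11) carried both marks in both replicates, as did 3 of 4 subunits that recognise the RGD motif of fibronectin and vitronectin (ITGA5, ITGA8 and ITGAV). The RGD receptor without either mark was ITGA2B, the αIIb subunit of the platelet fibrinogen receptor. Of the laminin-binding α subunits, ITGA3 and ITGA6 had both marks and ITGA7, known from muscle, had neither. The ITGA3 TSS lies 201 bases from that of LOC110256024, so the marks of these neighbours cannot be told apart. ITGA9 had both and its relative ITGA4, which binds VCAM-1 on endothelium, had neither. All 6 β subunits outside the leukocyte families (ITGB1, ITGB3, ITGB4, ITGB5, ITGB6 and ITGB8) had both marks. Of the 6 leukocyte subunits, ITGAL, the αL chain of LFA-1, was marked, and ITGAD, ITGAE, ITGAM, ITGB2 and ITGB7 were not. Among the laminins, H3K4me3 was found at all 5 α chain genes, at LAMB1 and LAMB2 but not LAMB3 or LAMB4, and at LAMC1 and LAMC3.

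**Figure D1:**
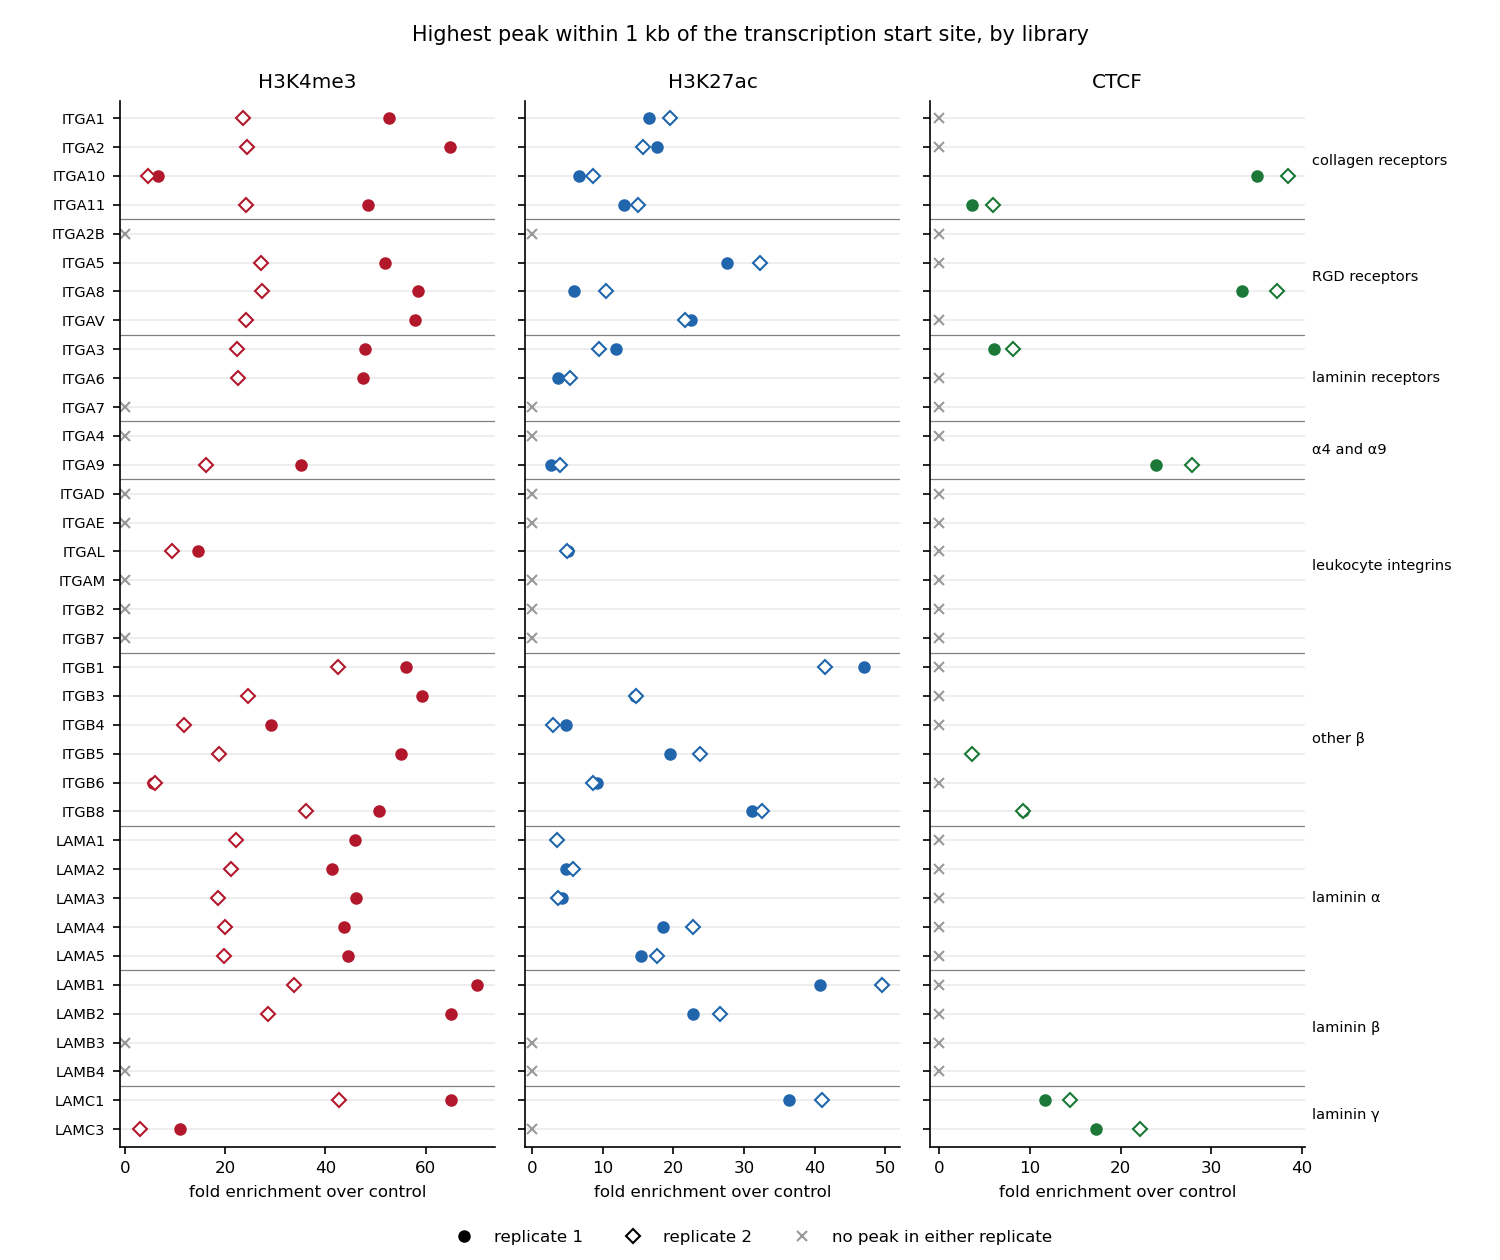
Fold enrichment over control of the highest peak within 1 kb of the TSS for the integrin and laminin genes (rows, grouped by role), in the panels for H3K4me3, H3K27ac and CTCF. Filled circles are replicate 1, open diamonds replicate 2, and a grey cross marks a gene with no peak in either replicate. H3K4me3 values run from 5.51 at ITGB6 to 70.3 at LAMB1 in replicate 1, and from 3.03 at LAMC3 to 42.7 at LAMC1 in replicate 2. H3K27ac values over both replicates run from 2.71 at ITGA9 to 49.6 at LAMB1.

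LAMB1, the β1 chain found in most laminin trimers, had the highest H3K4me3 of the members in replicate 1, with a fold enrichment of 70.3, and 33.7 in replicate 2. Its H3K27ac fold enrichment was 40.7 in replicate 1 and 49.6 in replicate 2, at percentiles 98.4 and 99.1 of the 11830 genes with an H3K27ac peak at the TSS in both replicates. LAMB1 (gene ID 396707, chr9:107670120-107747242, minus strand) was also the member most fully covered by H3K27ac. Peaks overlaid 84.9% and 85.1% of its 77.1 kb in replicates 1 and 2, beside medians of 5.75% and 6.13% over all genes. A single H3K27ac peak of 21.1 and 21.2 kb reached from 1.34 and 1.44 kb before the TSS to 19.8 kb inside the gene in both replicates. The H3K4me3 peak was 9.82 and 13.0 kb wide and ran in the same direction.

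ITGB1, the β1 subunit shared by the collagen, fibronectin and laminin receptors, had H3K4me3 fold enrichment of 56.1 and 42.5. For H3K27ac it had 47.0 and 41.4, at percentiles 99.7 and 96.3. Its H3K27ac peak was 21.0 kb wide in both replicates and reached 19.7 kb into the gene (gene ID 397019, chr10:56078393-56130608, minus strand), which was covered over 64.8% and 65.2% of its length. LAMC1, the γ1 chain that joins most laminin trimers, had H3K4me3 fold enrichment of 65.0 and 42.7 and H3K27ac of 36.4 and 41.0. The LAMC1 peaks were narrower than those of LAMB1, at 6.35 and 6.99 kb for H3K27ac, and extended 3.55 and 3.86 kb before the TSS. ITGB1, LAMB1 and LAMC1 had the highest H3K27ac of the 24 genes in both replicates.

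Wide peaks were also found at ITGA5, LAMA4, LAMA5 and ITGB8. ITGA5, the α5 subunit of the fibronectin receptor, had H3K27ac fold enrichment of 27.6 and 32.2 in peaks of 16.8 and 17.5 kb that reached 6.83 and 6.80 kb before the TSS. H3K27ac covered 72.9% and 76.6% of this 23.2 kb gene. LAMA4, the α4 chain of mesenchymal and vascular laminins, had H3K27ac peaks of 17.7 and 18.2 kb that lay almost wholly inside the gene, with fold enrichment of 18.5 and 22.8. The H3K4me3 peaks at these genes were wide as well, 9.03 and 9.52 kb at ITGA5 and 9.66 and 10.4 kb at LAMA4. LAMA5, the α5 chain of adult basement membranes, differed between replicates in H3K27ac width, 9.30 kb against 18.3 kb, with fold enrichment of 15.4 and 17.7. The summit of the LAMA5 H3K27ac peak lay shortly before the TSS in replicate 1 but 10.8 kb inside the gene in replicate 2. The value of 17.7 is therefore not the height at the TSS, and the replicates are not matched there. ITGB8, the β8 partner of αV, had H3K4me3 peaks of 8.56 and 10.9 kb and H3K27ac fold enrichment of 31.2 and 32.5. The ITGB8 TSS lies 64 bases from that of MACC1, so its marks cannot be told apart from those of the neighbour.

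ITGAV had H3K4me3 fold enrichment of 57.8 and 24.2 and H3K27ac of 22.4 and 21.6. ITGB5, the β5 subunit of the vitronectin receptor, had H3K27ac of 19.6 and 23.7. ITGB3, the β3 subunit shared by αVβ3 and the platelet receptor, had H3K4me3 of 59.2 and 24.6 and H3K27ac of 14.6 and 14.7. The collagen receptors ITGA1, ITGA2 and ITGA11 had H3K27ac fold enrichment between 13.1 and 19.6 in the 6 values. For H3K4me3, ITGA2 had fold enrichment of 65.0 in replicate 1, above ITGA1 and ITGA11, but 24.3 in replicate 2, where ITGA1 had 23.6 and ITGA11 24.2. ITGA1 and PELO, a ribosome-rescue gene, start 11 bases apart, and their marks could not be separated. LAMB2, a chain of the neuromuscular and kidney laminins, had H3K4me3 of 65.1 and 28.6 and H3K27ac of 22.7 and 26.6.

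**Figure D2:**
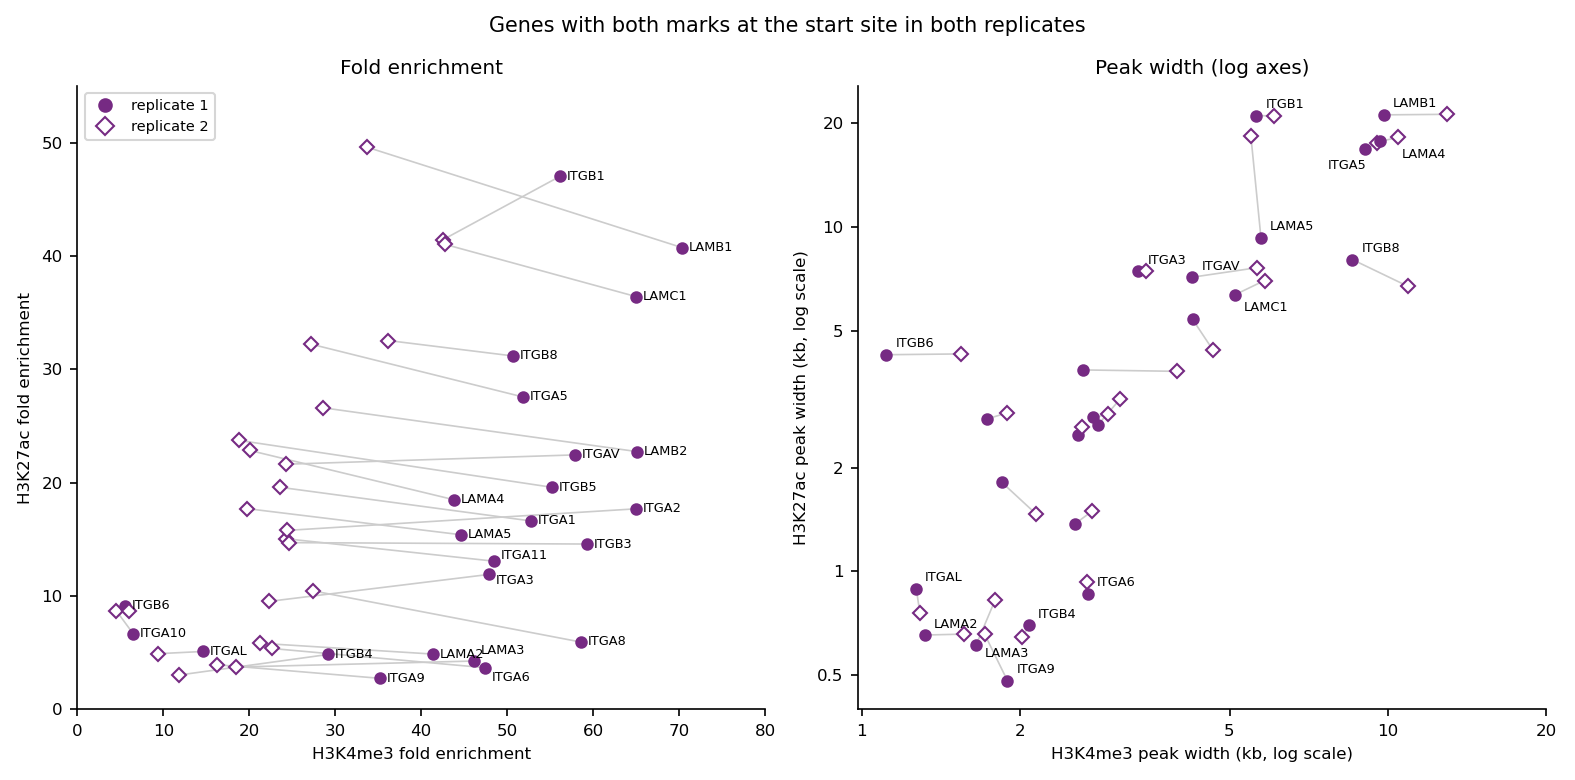
H3K4me3 (horizontal) against H3K27ac (vertical) at the TSS of the 24 genes with both marks, as fold enrichment on linear axes (left) and peak width in kb on log axes (right). Each gene has a filled circle for replicate 1 and an open diamond for replicate 2, joined by a line. LAMB1, ITGB1 and LAMC1 lie at the top of the left panel, and ITGA9, ITGA6, LAMA2, LAMA3 and ITGB4 lie low in H3K27ac over a wide range of H3K4me3.

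Some genes with H3K4me3 at the TSS had little H3K27ac. They were singled out after their values were seen, as the 6 genes whose H3K27ac fold enrichment was under 6 in both replicates (LAMA2, LAMA3, ITGA6, ITGA9, ITGB4 and ITGAL). Their H3K4me3 fold enrichment lay between percentile 6.5, at ITGAL, and 40.8, at ITGA6, of the 13423 genes with that mark in both replicates. ITGA6 and ITGB4 form α6β4, a laminin receptor of the hemidesmosome. ITGA6 had H3K4me3 fold enrichment of 47.4 and 22.6, close to the medians of 52.2 and 25.4 over all genes with that mark, but H3K27ac of 3.65 and 5.35, at percentiles 2.5 and 5.3. ITGB4 had H3K4me3 of 29.1 and 11.8 and H3K27ac of 4.82 and 3.00. LAMA3 had H3K4me3 of 46.2 and 18.5 and H3K27ac of 4.24 and 3.71. At none of these 3 genes was the H3K27ac peak wider than 0.932 kb.

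LAMA2, the α2 chain of muscle basement membrane, had H3K4me3 fold enrichment of 41.4 and 21.3 and H3K27ac of 4.86 and 5.81. ITGA9, a receptor for tenascin-C and osteopontin, had H3K4me3 of 35.2 and 16.2 and H3K27ac of 2.71 and 3.92, the lowest H3K27ac value of the members in replicate 1. LAMA1, the α1 chain of the embryonic basement membrane, had H3K4me3 of 45.9 and 22.2, no H3K27ac peak in replicate 1 and a peak of 3.59 and 0.474 kb in replicate 2. LAMC3, the γ3 chain, had weak H3K4me3 of 11.06 and 3.03 and no H3K27ac in either replicate. It also had no H3K27ac summit anywhere in its 66.8 kb.

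ITGAL, ITGA10 and ITGB6 were low in both marks. ITGB6, the epithelial β6 partner of αV, had H3K4me3 of 5.51 and 6.0 and H3K27ac of 9.13 and 8.68. ITGA10, a collagen receptor known from cartilage, had H3K4me3 of 6.51 and 4.55 and H3K27ac of 6.64 and 8.66. ITGAL had H3K4me3 of 14.6 and 9.35 with the summit 1.44 and 1.54 kb inside the gene. These 3 genes had the lowest H3K4me3 of the 24 genes with both marks.

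Across the 24 genes with both marks, the fold enrichment of H3K4me3 and that of H3K27ac rose together, with Spearman correlations of 0.68 in replicate 1 and 0.76 in replicate 2, and for peak width of 0.83 and 0.84. Between replicates the correlation was 0.86 for H3K4me3 fold and 0.98 for H3K27ac fold. These correlations are across genes, which share a library and are not independent replicates, and are given as a description. As a group, the marked members did not stand higher than other marked genes. Median H3K4me3 fold enrichment was 48.1 and 22.5 over the 26 members against 52.2 and 25.4 over all marked genes. Median H3K27ac fold enrichment was 15.0 and 15.4 over the 24 members against 16.5 and 19.6. Median H3K27ac width was 3.32 and 3.49 kb in the members and 2.46 and 2.49 kb in all marked genes.

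Of the 11 genes with no mark at the annotated TSS, 6 had an H3K4me3 peak of at least 10-fold enrichment in both replicates further inside the gene, among them ITGA2B, ITGA4, ITGA7, ITGAE and ITGB7. That threshold was set after the values were seen. In ITGA4 the peak summit lay 5.19 and 5.52 kb after the TSS, with fold enrichment of 43.2 and 13.3. It fell inside an annotated first exon of 5634 bases, and the H3K27ac peak nearest to the TSS lay 290 kb away in replicate 1 and 32.7 kb away in replicate 2. In ITGA7 it lay 2.76 and 2.71 kb after the TSS, with fold enrichment of 43.0 and 17.0, behind an annotated first exon of only 7 bases. In ITGA2B it lay 2.97 and 3.01 kb inside, with 23.9 and 13.2, and in ITGB7, the β7 subunit of gut-homing lymphocytes, 7.39 kb inside with 29.2 and 14.2.

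In ITGAE, the αE subunit of intraepithelial lymphocytes, the peak 57.4 and 58.3 kb inside (fold enrichment 54.5 and 29.6) covered the TSS of GSG2, a kinase gene nested in ITGAE. ITGB2, the shared β2 chain of the leukocyte family, had an internal peak of 15.0 in replicate 1 and 7.91 in replicate 2. ITGAD and ITGAM, chains of myeloid β2 integrins, held no H3K4me3 or H3K27ac summit anywhere in their bodies, and their nearest H3K4me3 peaks lay 25.3 and 33.7 kb before the TSS in both replicates. LAMB3 held H3K4me3 in replicate 1 only (3.82), and LAMB4 in replicate 2 only (3.10).

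**Figure D3:**
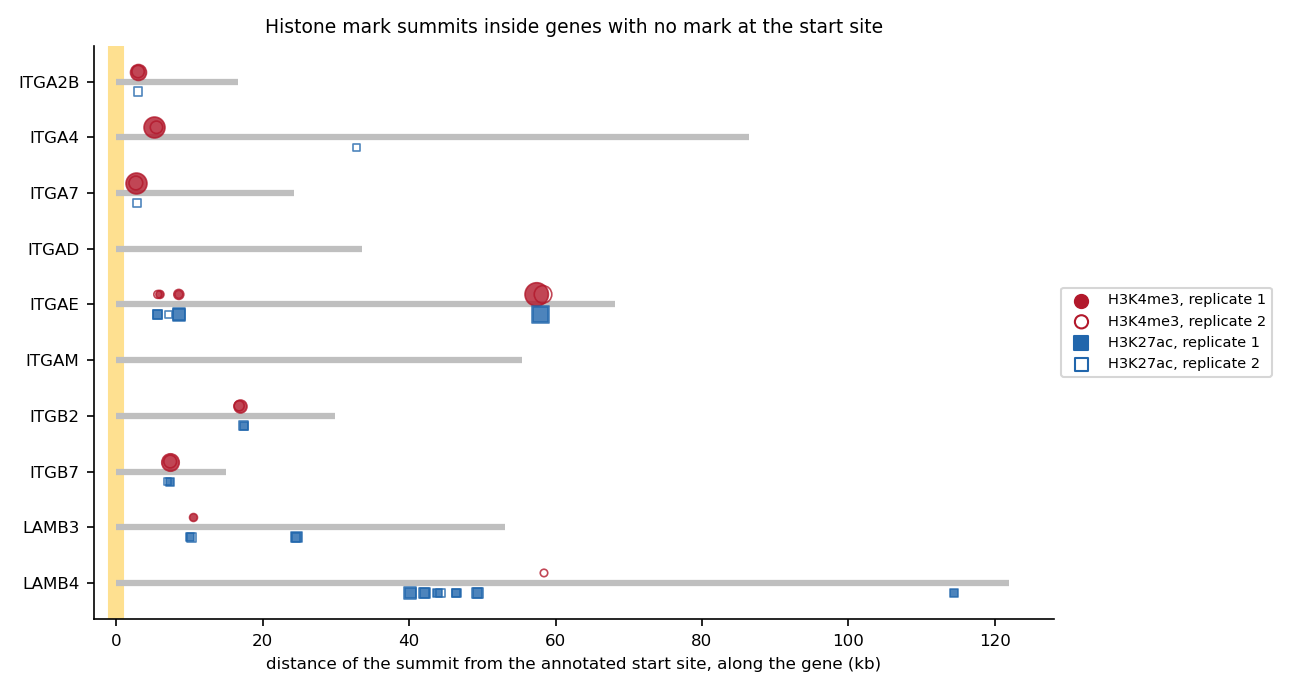
Position of H3K4me3 (circles) and H3K27ac (squares) summits inside genes without a mark at the annotated TSS, in kb from the TSS along the direction of transcription. Grey bars are the genes, the yellow band is 1 kb on each side of the TSS, filled symbols are replicate 1, open symbols replicate 2, and the symbol area grows with fold enrichment. ITGA2B, ITGA4, ITGA7 and ITGB7 each hold an H3K4me3 peak of at least 10-fold enrichment within the first 7.39 kb, while ITGAD and ITGAM hold none.

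Read by known complexes, both chains of α5β1, αVβ5, α11β1 and α1β1 carried H3K4me3 and H3K27ac at the TSS in both replicates. By the same call so did αVβ3, αVβ6, αVβ8, α2β1, α3β1, α6β1, α6β4, α8β1, α9β1 and α10β1, so the call did not set apart the receptors known from fibroblasts. All chains of the trimers LAMA2-LAMB1-LAMC1, LAMA4-LAMB1-LAMC1, LAMA4-LAMB2-LAMC1, LAMA5-LAMB1-LAMC1 and LAMA5-LAMB2-LAMC1 were marked too. By the same call so were those of LAMA2-LAMB2-LAMC1, LAMA3-LAMB1-LAMC1 and LAMA3-LAMB2-LAMC1, so it did not set trimers apart either. In LAMA1-LAMB1-LAMC1 only LAMA1 fell short, with H3K27ac in replicate 2 alone. For α6β4 both chains had H3K4me3 with H3K27ac at or under 5.35 at the TSS. For the αMβ2 and αDβ2 receptors neither chain was marked, for αLβ2 only ITGAL was, and for αIIbβ3 only ITGB3 was. Both chains of α4β7 and αEβ7 were unmarked. Unmarked here refers to the annotated TSS only, since ITGA2B, ITGA4, ITGAE, ITGB2 and ITGB7 held the H3K4me3 peaks further inside the gene given above. The peaks do not show whether the chains occurred in the same cells.

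H3K27ac summits inside the gene but away from the TSS were found in both replicates in 25 of the 37 genes, beside 41.8% of all protein-coding genes. The members are long, with a median of 72.1 kb against 20.7 kb, and a longer gene has more room for a summit. Per 100 kb of summed gene length, there were 4.32 and 4.74 summits in the members against 3.43 and 3.82 in all genes. In total the members held 164 and 180 such summits, of which 94.5% and 92.8% were intronic, and 84.8% of those in replicate 1 overlapped a peak of replicate 2.

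ITGB6 held the most, with 16 and 19 summits over 134 kb, although its TSS was among the weakest. Its highest internal H3K27ac peak had fold enrichment of 14.5 in replicate 1, 72.4 kb after the TSS, and 25.6 in replicate 2, 33.0 kb after it. A peak 72.4 kb inside with fold enrichment of 13.9 was also present in replicate 2. ITGA8, the α8 subunit of smooth muscle and kidney mesenchyme, held 15 and 15, the highest with fold enrichment of 11.8 and 12.04, 103.6 and 103.3 kb after the TSS. Its TSS had H3K4me3 of 58.5 and 27.4 and H3K27ac of only 5.92 and 10.4. The summits of these H3K27ac peaks lay 2.75 and 1.18 kb inside the gene. LAMA4 and ITGB5 held 12 each in both replicates, ITGB1 13 and 10, LAMC1 11 and 12, and ITGB3 11 and 8.

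Several genes with both marks had their highest H3K27ac inside the gene and not at the TSS in both replicates. They were ITGB3, ITGA1, ITGA8, ITGA9, ITGA10, ITGB6, LAMA2 and LAMA3. The ITGB3 peak 12.8 kb after the TSS had fold enrichment of 29.0 and 29.5, against 14.6 and 14.7 at the TSS, and was 7.80 and 7.42 kb wide. No H3K4me3 peak inside ITGB3 away from the TSS exceeded 4.85 and 3.85. In ITGA1 a site 11.9 kb after the TSS had H3K4me3 of 57.9 and 26.1, in peaks of 4.70 and 6.02 kb. H3K27ac at that site reached 27.4 and 31.1. The 2 marks there were both above the values at the ITGA1 TSS, 52.8 and 23.6 for H3K4me3 and 16.6 and 19.6 for H3K27ac. PELO starts 11 bases from ITGA1, and which of these genes the site belongs to was not tested. LAMA1, LAMC3, ITGA6, ITGB4, LAMB2, ITGAD and ITGAM had no H3K27ac summit inside the gene away from the TSS in either replicate. In the 50 kb beyond the ends of the gene, members had a median of 6 and 5 H3K27ac summits against 4 and 4 in all genes.

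**Figure D4:**
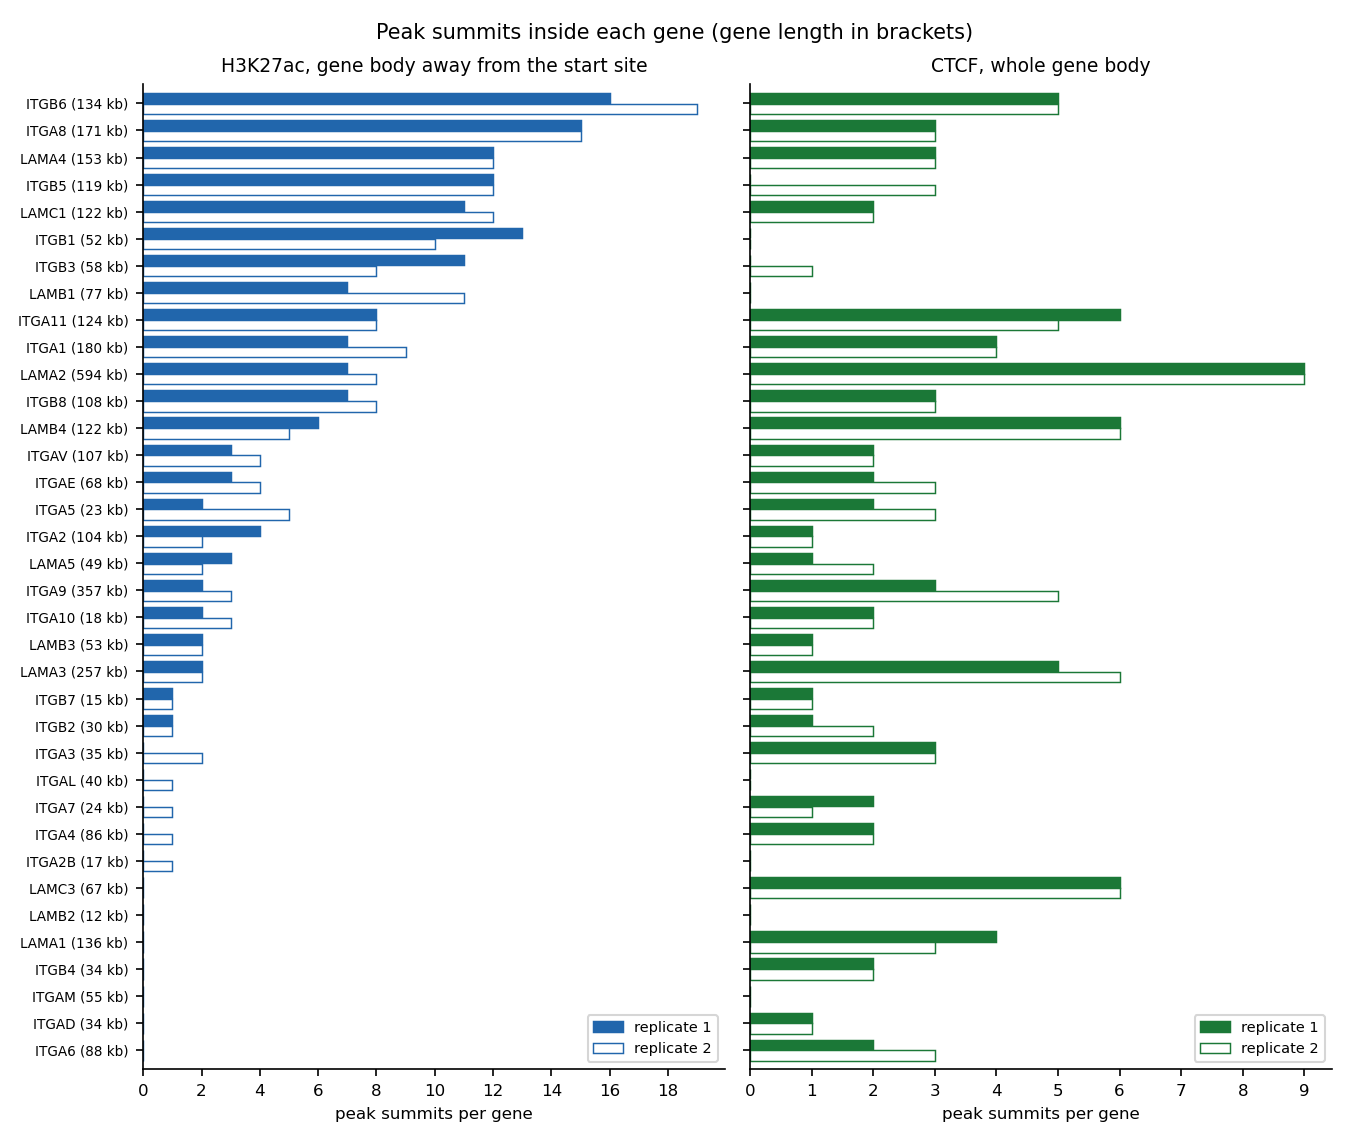
Number of H3K27ac summits in the gene away from the TSS (left) and of CTCF summits in the whole gene (right) for the integrin and laminin genes, sorted by the H3K27ac count, with gene length in kb in brackets. Filled bars are replicate 1 and open bars replicate 2. ITGB6 and ITGA8 lead for H3K27ac, and LAMA2 leads for CTCF with 9 in each replicate.

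CTCF was found within 1 kb of the TSS in both replicates at 8 members (ITGA3, ITGA8, ITGA9, ITGA10, ITGA11, ITGB8, LAMC1 and LAMC3), beside 17.9% of all protein-coding genes. ITGA10 had the highest fold enrichment, 35.0 and 38.4, followed by ITGA8 with 33.4 and 37.2 and ITGA9 with 23.9 and 27.9. LAMC3, whose TSS lacked H3K27ac, had 17.3 and 22.1. LAMC1 had 11.7 and 14.4, ITGB8 9.24 and 9.29, and ITGA3 6.07 and 8.16. ITGA11 had 3.66 and 5.97, with summits 0.392 and 1.25 kb after the TSS. Replicate 1 also had a peak of 3.64 with its summit 1.30 kb after the TSS, next to that of replicate 2. ITGB5 had a weak peak of 3.64 in replicate 2 only. Within 5 kb of the TSS, 14 members had CTCF in both replicates.

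The bases around the replicate 2 CTCF summit are shown for 4 of the 6 genes where a match to the CTCF core motif lay there, LAMC3, ITGA8, LAMC1 and ITGA11. ITGA9 and ITGA10 also had a match, with 1 mismatch each on the strand of the gene, and are not printed. The core was searched on both strands with up to 2 mismatches and is in capitals. Each stretch is 101 bases of Sscrofa11.1, 50 on each side of the summit, written 5′ to 3′ on the gene's strand. The LAMC3 stretch (chr1:271004253-271004353, plus strand) has its summit 120 bases before the TSS. The ITGA8 stretch (chr10:46132795-46132895, plus strand) has it 42 bases before the TSS. The LAMC1 stretch (chr9:124283962-124284062, plus strand) lies 344 bases after the TSS in coding sequence, and the ITGA11 stretch (chr1:166309745-166309845, minus strand) lies 1251 bases after it.
LAMC3: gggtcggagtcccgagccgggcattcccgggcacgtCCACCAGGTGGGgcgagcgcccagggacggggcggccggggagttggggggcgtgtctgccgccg
ITGA8: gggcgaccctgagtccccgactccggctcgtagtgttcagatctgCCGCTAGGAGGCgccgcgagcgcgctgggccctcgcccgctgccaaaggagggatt
LAMC1: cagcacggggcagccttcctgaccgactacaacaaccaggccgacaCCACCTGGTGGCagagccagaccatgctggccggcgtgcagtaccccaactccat
ITGA11: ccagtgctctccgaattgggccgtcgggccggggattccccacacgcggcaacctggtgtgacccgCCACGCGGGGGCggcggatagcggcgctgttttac

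In all 4 the core in capitals is on the strand of the gene, which was kept where both strands matched equally. At LAMC1 the opposite strand matched with as few mismatches, 1. At LAMC3 it also matched within the limit, so the strand of the core is not settled at these genes. A core within these limits lay within 50 bases of the summit at 77.3% of the 88 and 97 CTCF peaks of the members in both replicates, and at 77.1% and 77.5% of all CTCF peaks. In windows 1 kb away the share was 12.5% and 9.28% for the members and 7.28% and 7.21% for all peaks. At ITGB8 and ITGA3 no core was found in the window. A match describes the letters only.

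CTCF summits lay inside 29 of the 37 genes in both replicates, beside 46.1% of all protein-coding genes, and per 100 kb of summed gene length the members had 2.11 and 2.32 away from the TSS against 1.64 and 1.80 in all genes. LAMA2, which spans 594 kb, held 9 and 9, the highest with fold enrichment of 55.7 in replicate 1, 336 kb after the TSS, and 69.7 in replicate 2, 578 kb after it. LAMB4 and LAMC3 held 6 in each replicate, ITGA11 6 and 5, LAMA3 5 and 6, and ITGB6 5 and 5. ITGA1 held 4 and 4, of which the site 134 kb after the TSS had fold enrichment of 78.0 and 91.8. LAMB1, ITGB1, LAMB2, ITGA2B, ITGAL and ITGAM held no CTCF summit in either replicate.

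Neighbouring members, within 500 kb of each other, are given for 3 pairs. LAMB1 and LAMB4 lie head to tail on chromosome 9 with 30.6 kb between them and 152 kb between their TSSs. No CTCF summit lay in the gap, and 6 in each replicate lay between the TSSs, all within LAMB4. H3K27ac covered LAMB1 as described, whereas LAMB4 had 6.02% and 5.10% of its length covered and no mark at its TSS. ITGA1 and ITGA2, the α1 and α2 collagen receptors on chromosome 16, had 26.3 kb and no CTCF between them in either replicate, and 4 and 4 summits between their TSSs, all within ITGA1. ITGAD and ITGAM on chromosome 3, with ITGAX in the 46.9 kb between, had 0 and 0 CTCF summits in the gap and between the TSSs.

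**Figure D5:**
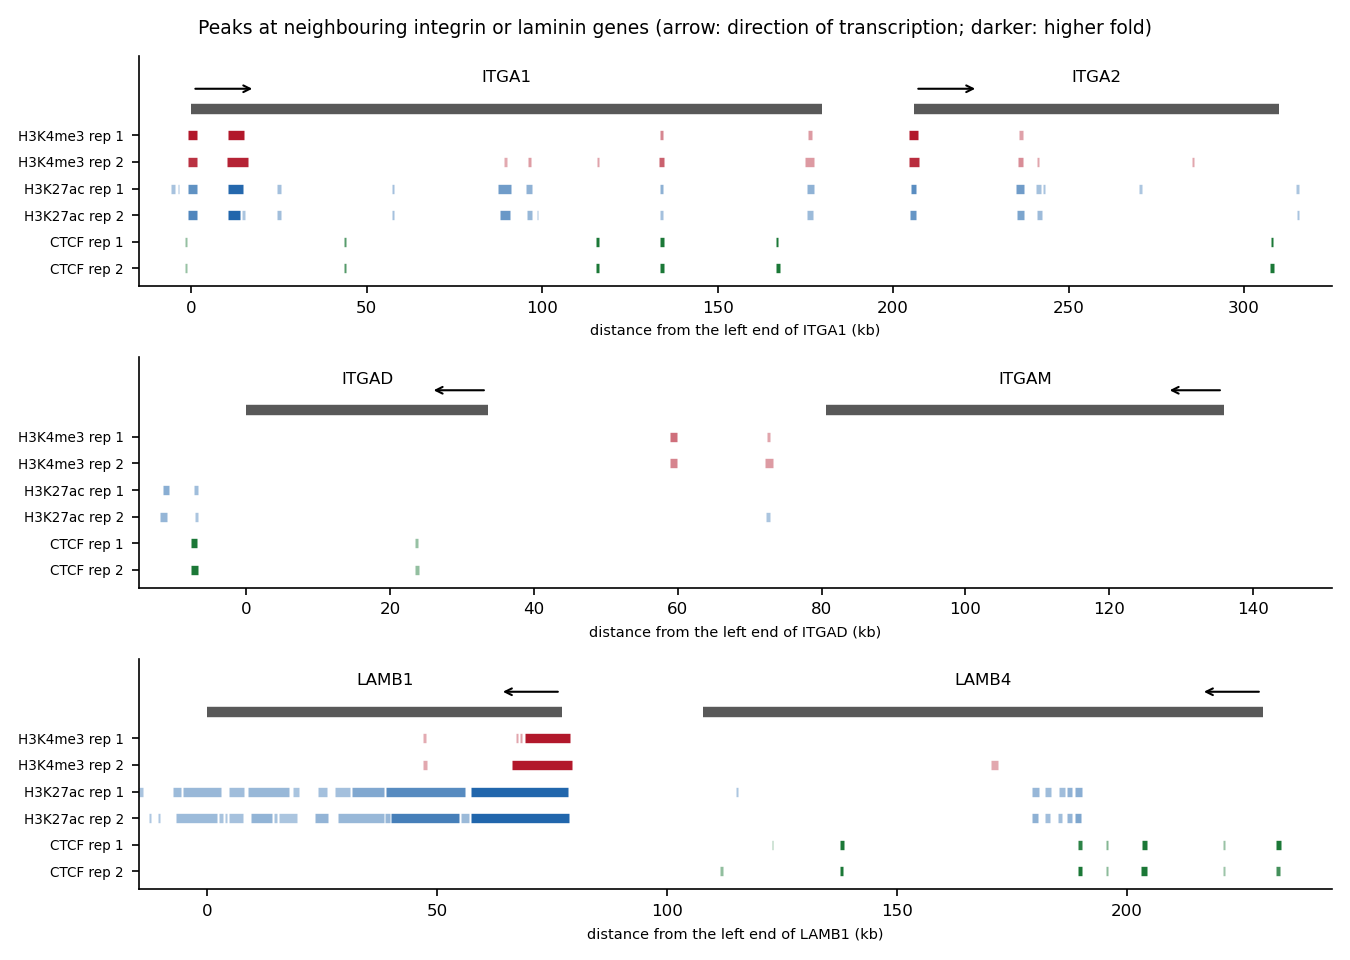
Peaks around 3 pairs of neighbouring members, in kb from the left end of the left gene. Grey bars are the genes, arrows give the direction of transcription from the TSS, and coloured bars are H3K4me3 (red), H3K27ac (blue) and CTCF (green) peaks in replicates 1 and 2, darker with higher fold enrichment. H3K27ac covers LAMB1 over 84.9% and 85.1% of its length, and no CTCF peak lies between LAMB1 and LAMB4.

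In the promoter window of 250 bases before to 50 bases after the TSS, the ratio of observed to expected CpG had a median of 0.71 over the 24 members with both marks and 0.39 over the 11 with neither, against 0.79 and 0.27 in all genes of the same states. Marked members ranged from 0.051 at LAMA4 to 0.98 at LAMA3. ITGB6 with 0.14, ITGA10 with 0.15 and ITGAL with 0.19 were the next lowest and had the lowest H3K4me3 fold enrichment of the 24, while LAMA4 had 43.8 and 20.04. LAMC1 with 0.96 and ITGB5 with 0.91 stood at the upper end. Unmarked members reached 0.54 at most, at ITGB7. Over the 26 genes with H3K4me3 the Spearman correlation of CpG ratio with H3K4me3 fold was 0.41 and 0.33, given as a description across genes.

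Within 250 bases of the internal H3K4me3 summits the CpG ratio was 0.84 and 0.82 in ITGA4, 0.83 and 0.83 in ITGA7, 0.71 and 0.71 in ITGB7 and 0.68 and 0.68 in ITGA2B. In ITGAE it was 1.019 in replicate 1 and 0.34 in replicate 2. The medians around all H3K4me3 summits were 0.52 and 0.41. Those medians include peaks of any fold enrichment, whereas the internal peaks were taken at 10-fold or more, so the 2 sets are not matched. The CpG ratio at the annotated TSS was 0.54 in ITGAE, 0.39 in ITGA4, 0.20 in ITGA7, 0.54 in ITGB7 and 0.11 in ITGA2B.

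The GGGCGG letters of the SP1 motif, searched on both strands, stood in the promoter window of 16 of the 24 members with both marks (66.7%) and 2 of the 11 with neither (18.2%). The shares in all genes of those states were 67.2% and 14.7%, and 50.7% in all promoters. The AP-1 letters TGANTCA stood at LAMB1 and ITGB6 alone among the members, 5.41% beside 6.08% of all promoters. The TEAD letters GGAATG stood in 16.2% of members and 11.9% of all promoters. The members were LAMB1, ITGB1, ITGB6 and LAMC3, and also ITGA2B and ITGA7, which had neither mark at the TSS. By state the share was 12.5% of members with both marks and 18.2% of those with neither. The TATA letters TATAAA, counted on both strands, stood in 10.8% of the members and 10.8% of all promoters, ITGA4, ITGA7 and ITGA9 among them.

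Genes that act next to the integrins were taken from lists of 26 adhesion adaptors and 16 basement membrane partners. Of the adaptors, which link the β tail to actin, 23 had both marks at the TSS in both replicates, among them TLN1 and TLN2 (talins), VCL (vinculin), ILK, PXN (paxillin), FERMT2 (kindlin-2) and PTK2 (focal adhesion kinase). The 3 without either mark were FERMT3, the kindlin of blood cells, PARVG, the leukocyte parvin, and TNS1, a tensin. Of the partners, 14 had H3K4me3 and 10 also had H3K27ac, among them the basement membrane collagens COL4A1 and COL4A2, the nidogens NID1 and NID2, HSPG2 (perlecan) and FN1 (fibronectin). COL4A3, COL4A4, COL4A5 and SPP1 (osteopontin) had H3K4me3 alone, VTN differed between replicates and COL4A6 had neither mark. The adaptor and partner lists were read against the shares of all genes given above, 68.9% for H3K4me3, 60.7% for H3K27ac and 58.9% for both marks. No list was tested. With the peak summit required inside the 1 kb, 13 adaptors had H3K4me3 in both replicates.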

How the data were processed

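ChIP-seq peaks of PEFs were analysed from 6 lists, 2 each for H3K4me3, H3K27ac and CTCF. The inputs were not analysed here. Per the methods, the authors aligned reads to Sscrofa11.1 with Bowtie2, kept pairs with unique positions, discarded Picard duplicates, and ran MACS2 on each library for narrow peaks at q 0.01. Between 0.056% and 3.06% of peaks had a weaker q. Tool versions are not given in the sources used here. The deposited values are fold enrichment over control (a linear ratio), −log10 p and −log10 q, a display score (not used) and the summit offset. The peak lists hold no read counts, and the depth of the libraries was not taken into account here.

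The TSS was the 5′ end of the RefSeq gene record. A gene was called at its TSS where a peak overlapped the 1 kb on each side by at least 1 base, and marked where both replicates were called. Body and flank (50 kb beyond each end) counts used summits, and body counts left out peaks touching the TSS window where stated. Width at the TSS is the sum over peaks overlapping the window, and fold is that of the highest. Percentiles are among all genes called in both replicates. Counts were set beside all 19487 protein-coding genes without a test, as there is 1 condition. Counts include 1 member that is not reported here by itself, and the other members were named by state. Values were given by rule for the 5 members with the highest or widest H3K4me3 at the TSS, the 5 with most H3K27ac or CTCF summits in the body, those differing between replicates or with a single histone mark, and those within 500 kb of each other. Further members were given values after these were seen. Members, lists and motifs were chosen with earlier results of these data known. Python 3.11.15, pandas 2.3.3, numpy 2.4.6 and pysam 0.24.0 were used, and calls were tested on simulated data.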

Additional observations from a re-analysis of the deposited data

How the results depend on the processing

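No paired analysis was possible because a single condition was measured and no model was fitted. Of the 85 values recomputed under the alternatives, 6 moved by more than 1.5 times for a count or by more than the spread between replicates for a median. The medians without a replicate are themselves that spread, so they are no check. With a TSS window of 5 kb, the members with CTCF in both replicates rose from 8 to 14 and those with neither histone mark fell from 11 to 6, with H3K4me3 gained at ITGA2B, ITGA4 and ITGA7 and H3K27ac gained at ITGAE. With the summit required inside the 1 kb window, members with both marks fell from 24 to 13, and adaptors with H3K4me3 from 23 to 13. The median number of H3K27ac summits in the flanks, 5.5, became 4 with −log10 q of at least 5 and 3 with flanks of 25 kb.

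Leaving out replicate 1 or replicate 2 gave 26 and 26 members with H3K4me3, 25 and 24 with H3K27ac or with both marks, 9 and 8 with CTCF at the TSS, 11 and 11 with neither mark, 30 and 25 with H3K27ac and 31 and 29 with CTCF in the body, 17 and 17 integrins and 9 and 9 laminins with H3K4me3, 23 and 23 adaptors, flank medians of 5 and 6, and median H3K4me3 fold enrichment of 22.5 and 48.1. A stricter −log10 q of at least 5 lost LAMC3 for H3K4me3, ITGA9 and ITGB4 for H3K27ac and ITGA11 for CTCF. With 2 replicates and no read counts, differences of a few fold between genes carry no error beyond the replicate values printed.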
